A study of Homo sapiens with 6 samples.

Results

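The genes described here serve the folding and export of secreted proteins in the endoplasmic reticulum (ER): 36 genes of 27830 in the table, listed by name for their known function, with no threshold on a measured value. The list was chosen with earlier results of these data known. Its genes code for chaperones, disulfide and prolyl isomerases, the channel and peptidase that newly made proteins pass, retrieval receptors, and the sensors of the unfolded protein response. All 36 were found, each in 1 row. They were measured by RNA sequencing in LX-2, an immortalised line of human hepatic stellate cells, the collagen-making cells of the injured liver. The comparison is between 3 untreated control samples and 3 samples given 10 ng/ml of transforming growth factor beta 1 (TGF-β1), the main profibrotic cytokine, for 24 h. Serum-free medium is stated for the treatment, while that of the controls is not described, so an effect of the medium cannot be told apart from one of TGF-β1. LX-2 is a single line, and no label says that the samples of a group came from separate cultures. The p-values therefore rest on a spread among these samples that may be only technical.

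Proteins that a cell will secrete enter the ER through the SEC61 channel while they are made, lose their signal peptide there, and fold with the help of chaperones such as BiP (HSPA5), GRP94 (HSP90B1), calnexin and calreticulin. When unfolded proteins build up, the sensors ATF6, IRE1 (ERN1) and PERK (EIF2AK3) start the unfolded protein response, which raises the transcription of chaperone genes. Activated stellate cells secrete large amounts of collagen and fibronectin, and collagen folding relies on members such as P4HB, the beta subunit of prolyl 4-hydroxylase, and PPIB, a prolyl isomerase.

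The promoters of several members carry the ER stress response element, the sequence that ATF6 and XBP1 are known to act on. The sequences are shown because some of these genes, such as HSPA5, are used as markers of the unfolded protein response. The consensus searched, on both strands, was CCAAT followed by any 9 bases and then CCACG, in RefSeq windows on GRCh38.p14 from 250 bases before to 50 after each transcription start. Of the 36 members, 32 were found in the promoter table, and 7 of these (21.9%) held an exact match, against 25 of 27305 genes in the whole table (0.0916%). The members were listed partly as genes of this response, so these shares, and those of the motif below, are a description and not a test. In each line the element is in capitals, written 5′ to 3′ along the gene, and the coordinates are those of the printed bases.
PDIA6 (chr2:10812848-10812876, minus strand): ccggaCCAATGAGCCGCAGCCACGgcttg
CANX (chr5:179698773-179698801, plus strand): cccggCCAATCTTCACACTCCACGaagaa
HSPA5 (chr9:125241386-125241414, minus strand): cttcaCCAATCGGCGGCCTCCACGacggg
HSP90B1 (chr12:103930211-103930239, plus strand): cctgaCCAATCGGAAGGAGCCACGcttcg
HSP90B1 (chr12:103930316-103930344, plus strand): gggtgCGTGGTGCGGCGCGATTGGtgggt
CALR (chr19:12938379-12938407, plus strand): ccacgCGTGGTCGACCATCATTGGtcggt
XBP1 (chr22:28800598-28800626, minus strand): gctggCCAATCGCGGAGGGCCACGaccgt
CRELD2 (chr22:49918549-49918577, plus strand): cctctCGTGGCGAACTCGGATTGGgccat

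In HSP90B1 the first of its pair of sites reads along the gene and the second on the reverse strand, where the element appears as its reverse complement. The sites of CALR and CRELD2 are also on the reverse strand. The element of HSPA5 ends 48 bases before the transcription start. It lies in the following 120 bases upstream of that start, chr9:125241344-125241463 on the minus strand, with the element again in capitals.
HSPA5 upstream: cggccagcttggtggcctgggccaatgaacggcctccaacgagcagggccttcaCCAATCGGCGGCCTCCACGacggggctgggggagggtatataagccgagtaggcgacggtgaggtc

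A shorter motif bound by XBP1, TGACGTGG, was matched in 3 members (HYOU1, KDELR3 and SSR3) of the 32, or 9.38%, against 253 of the 27305 genes (0.927%). HYOU1 and KDELR3 had log2 differences between the groups of 0.15 and 0.03 (edgeR adjusted p = 0.595 and 0.942). The motif is shown for SSR3, picked as the member with the lowest adjusted p below, where it lies on the reverse strand and ends 34 bases before the start.
SSR3 (chr3:156554154-156554171, minus strand): aacagCCACGTCAgcaag
The bare core CCACG, part of the longer element, was present in 25 of the 32 members (78.1%) and in 42.1% of all genes in the promoter table. Of the other genes of the pathway listed further below, 83 were found in the promoter table. The core was present in 61 of these (73.5%), TGACGTGG in 9 (10.8%) and the longer element in 1 (1.2%). A match describes letters in the window and not a site in use, and a missing match says nothing about the factor.

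The members were abundant as a group. Their summed reads made up 1.20%, 1.15% and 1.16% of all counts in the controls (replicates 1 to 3 in order, as throughout) and 1.27%, 1.24% and 1.24% after TGF-β1. Total counts per library ran from 13866957 to 17694675. As CPM, read counts divided by the TMM-scaled library size, the sums were 12013, 11874 and 11583 in the controls and 12541, 12108 and 12695 after TGF-β1. The groups did not overlap in either measure, and as a sum over chosen genes it carries no test. The largest parts of the difference between group means were 237 CPM more of HSP90B1, 121 CPM more of CANX and 97.2 CPM more of SSR3, against 207 CPM less of P4HB (a difference of -207). In these bulk samples, more cells of a type and more RNA per cell cannot be told apart.

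**Figure D1:**
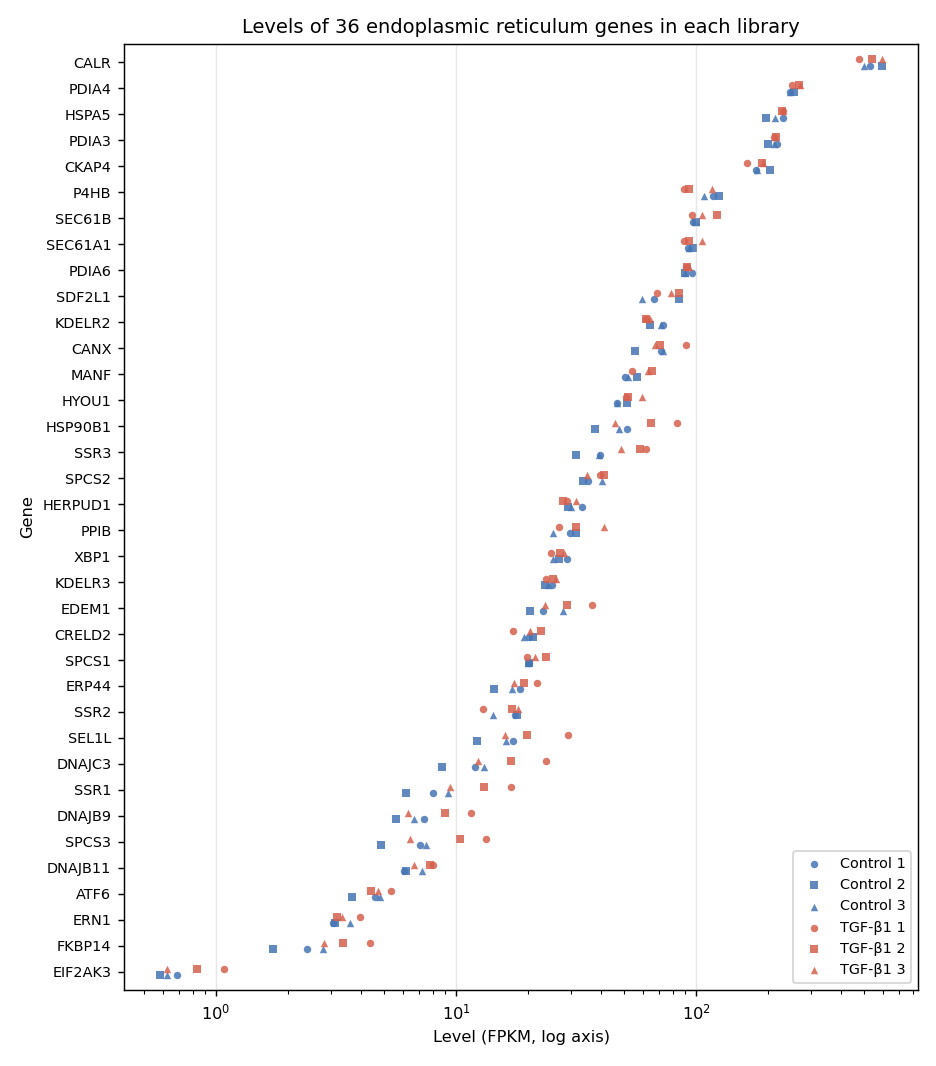
Level of each of the 36 genes in FPKM on a log axis, with blue points for the 3 control and red points for the 3 TGF-β1 libraries, sorted by the control mean. CALR lies at the top, near 542 FPKM, and EIF2AK3 at the bottom, at 0.633 FPKM, and for most genes the red and blue points intermingle.

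Levels of different genes were compared per length, as FPKM with the authors' gene lengths, which differ from those of the longest transcript. P4HB, with a longest transcript of 2603 nt, had a control mean of 1312 CPM. HSPA5, with 3908 nt, had 1403 CPM. The control FPKM was 117 for P4HB and 213 for HSPA5, so the order given here depends on the lengths used. CALR, the lectin chaperone calreticulin, was the highest member at 542 ± 46.1 FPKM (SD, n = 3) in the controls and 538 ± 59 FPKM (SD, n = 3) after TGF-β1. PDIA4, HSPA5, PDIA3 and CKAP4 followed with control means of 249, 213, 209 and 187 FPKM; HSPA5 and PDIA3 did not differ beyond their spread, while CALR stood above all of them in every library. P4HB came next at 117 ± 8.64 FPKM (SD, n = 3), ahead of a cluster of SEC61B, SEC61A1 and PDIA6 (98.9, 94.2 and 92.1 FPKM). The stress sensors stood near the foot of this FPKM order. ATF6 had 4.37, ERN1 3.28 and EIF2AK3 0.633 FPKM in the controls, and only FKBP14, a collagen-associated prolyl isomerase, at 2.31 FPKM, stood among them. XBP1, by contrast, stood at rank 20 of 36, with 27.1 FPKM.

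None of the 36 members was called between the groups by edgeR's quasi-likelihood test at an adjusted p under 0.05, in either direction. The background was 53 of 14463 genes tested, or 0.366% (0.187% higher and 0.180% lower), so the members' count is near the background. At an unadjusted p under 0.05, 7 members were higher and 0 lower, where the background was 11.1% higher and 4.49% lower. The background in either direction was 15.6%. DESeq2 called 2 members, both higher, where its own background was 3.70% higher. Of the 36 log2 differences, 27 were above 0 (75%, against 51.0% of all genes tested), and their median was 0.11, against 0.01 for all genes tested. For comparison, FN1, the fibronectin gene and one of the secreted products these proteins handle, had a log2 difference of 1.85 in the same fit (edgeR adjusted p = 5.11e-05). COL1A1, a chain of type I collagen, had 0.41 (edgeR adjusted p = 0.159) and ACTA2, smooth muscle actin, -0.08 (edgeR adjusted p = 0.898), neither called in this fit. Of 24 alternative settings, COL1A1 was called higher in 6, among them the removal of the GC trend described below, and ACTA2 was called in 0.

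The main fit put bounds on the size of most differences, given its own spread among libraries, which may be only technical. The 95% interval of the fold change, not adjusted for the number of genes, lay between 1/1.5 and 1.5 for 26 of the 36 members. It lay between 1/2 and 2 for 32, the exceptions being DNAJC3, FKBP14, SSR1 and SPCS3. These intervals do not allow for the GC trend described below. Its removal took some estimates outside them, such as SPCS2, with a log2 difference of -0.30 against an interval of -0.21 to 0.33. They are therefore not bounds on the effect of TGF-β1.

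**Figure D2:**
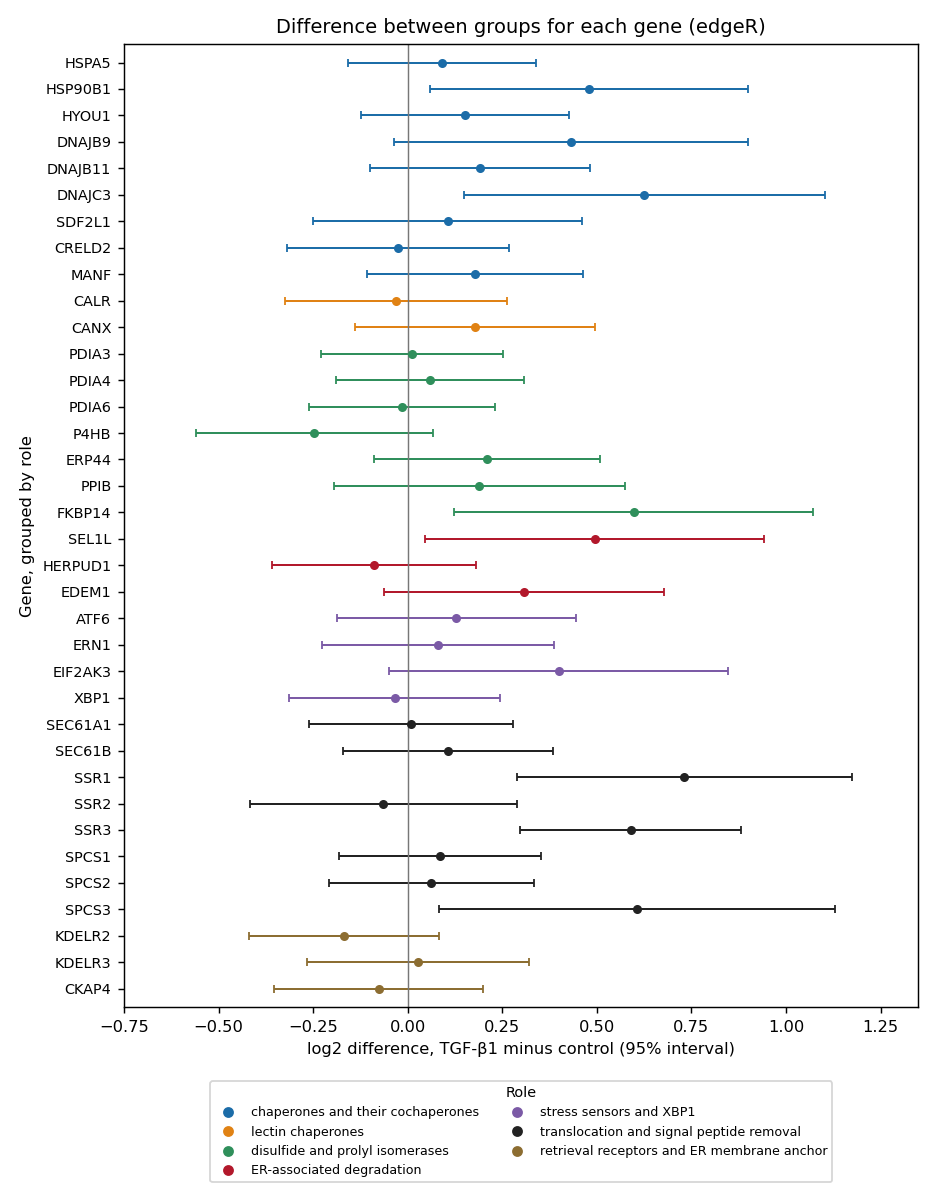
Log2 difference between TGF-β1 and control for each gene (x axis) with its 95% interval from edgeR, not adjusted for the number of genes, coloured by role (y axis lists the genes). SSR1 lies furthest from 0, at 0.73, and the intervals of 7 genes lie above 0 while none lies below it.

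Among the chaperones and their cochaperones, 0 of 9 were called, and 8 of the 9 log2 differences were above 0. HSPA5, the Hsp70 chaperone BiP and the standard marker of the unfolded protein response, had 1501, 1319 and 1388 CPM in the controls and 1491, 1456 and 1534 CPM after TGF-β1. The groups overlapped, with control replicate 1 above TGF-β1 replicates 1 and 2, and the log2 difference was 0.09 ± 0.11 (SE, edgeR adjusted p = 0.738). In GRCh38 the gene occupies bases 125234853 to 125241330 of chromosome 9 (minus strand). HSP90B1, the Hsp90-family chaperone GRP94, had 675, 511 and 625 CPM in the controls and 1081, 829 and 612 CPM after TGF-β1. Its replicates after TGF-β1 were far apart, the first well above every control and the third within the control range, and the log2 difference was 0.48 ± 0.19 (SE, edgeR adjusted p = 0.261). DNAJC3, a J-domain cochaperone that also restrains PERK, had 67.1, 50.3 and 72.8 CPM in the controls and 131, 92.3 and 70.3 CPM after TGF-β1. It showed the same split between its TGF-β1 libraries, with a log2 difference of 0.63 ± 0.22 (SE, edgeR adjusted p = 0.21). DNAJB9, the IRE1-restraining J-domain protein ERdj4, was low, at 16.7 ± 1.96 CPM in the controls and 22.5 ± 6.36 CPM after TGF-β1 (mean ± SD, n = 3; log2 difference 0.43 ± 0.21 SE, edgeR adjusted p = 0.352). The other 5 members of this role were HYOU1, SDF2L1, CRELD2, MANF and DNAJB11. Their log2 differences ran from -0.03 (CRELD2) to 0.19 (DNAJB11, of whose exon bases 23.2% overlap other genes), with edgeR adjusted p from 0.528 to 0.945. HYOU1, a large Hsp70 relative that exchanges nucleotide on BiP, and MANF, a secreted protein that binds BiP, had log2 differences of 0.15 and 0.18.

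The lectin chaperones hold glycoproteins while they fold. CALR had 1488, 1714 and 1402 CPM in the controls and 1327, 1472 and 1707 CPM after TGF-β1, and the groups overlapped, with a log2 difference of -0.03 ± 0.13 (SE, edgeR adjusted p = 0.935). CANX, the membrane-bound partner calnexin, had 979.7, 793 and 994 CPM in the controls and 1230.1, 951 and 947 CPM after TGF-β1. Only the first TGF-β1 library exceeded the control range, and the log2 difference was 0.18 ± 0.14 (SE, edgeR adjusted p = 0.588).

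Among the disulfide and prolyl isomerases, 0 of 7 were called. PDIA3, PDIA4 and PDIA6, protein disulfide isomerases of the ER, had small differences. PDIA3 had 917, 867 and 886 CPM in the controls and 885, 885 and 919.7 CPM after TGF-β1, and its 95% interval of the fold change was 0.853 to 1.19. PDIA4 and PDIA6 had log2 differences of 0.06 and -0.02 (edgeR adjusted p = 0.834 and 0.963). Other genes overlap 18.9% of the exon bases of PDIA3 and 25.2% of those of PDIA6, and the counts are unstranded. P4HB, which serves both as a disulfide isomerase and as the beta subunit of the enzyme that hydroxylates collagen prolines, had 1312, 1431 and 1192 CPM in the controls and 976, 1013 and 1326 CPM after TGF-β1. TGF-β1 replicates 1 and 2 lay below all controls and replicate 3 lay among them. Its log2 difference of -0.25 ± 0.14 (SE, edgeR adjusted p = 0.434) was the lowest of all members. FKBP14 had 12.8, 9.50 and 14.9 CPM in the controls and 23.2, 17.6 and 15.4 CPM after TGF-β1. All its TGF-β1 libraries lay above all controls, with a log2 difference of 0.60 ± 0.22 (SE, edgeR adjusted p = 0.222). PPIB, cyclophilin B, had 127 ± 15.9 and 145 ± 35.5 CPM (log2 difference 0.19 ± 0.18 SE, edgeR adjusted p = 0.637), while SNX22, on the other strand, covers 27.2% of its exons. ERP44, which retains client proteins through mixed disulfides, had a log2 difference of 0.21 (edgeR adjusted p = 0.489).

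The stress sensors and XBP1 showed no call in 4 genes. ATF6, the membrane-bound transcription factor, had 65.7, 54.1 and 68.4 CPM in the controls and 75.6, 61.5 and 68.8 CPM after TGF-β1, with overlapping groups and a log2 difference of 0.13 ± 0.14 (SE, edgeR adjusted p = 0.703). ERN1, the kinase and nuclease IRE1 that splices XBP1 messenger RNA, had a log2 difference of 0.08 (edgeR adjusted p = 0.816). EIF2AK3, the kinase PERK, had 14.2, 12.5 and 12.9 CPM in the controls and 22.2, 16.8 and 13.2 CPM after TGF-β1. Its difference rested on replicates 1 and 2, since replicate 3 lay among the controls (log2 difference 0.40 ± 0.20 SE, edgeR adjusted p = 0.37). XBP1 had 87.7, 84 and 76.5 CPM in the controls and 74.7, 80.3 and 87.4 CPM after TGF-β1, with overlapping groups and a log2 difference of -0.03 ± 0.13 (SE, edgeR adjusted p = 0.919). A gene total does not separate spliced from unspliced XBP1, so the activity of IRE1 was not measured.

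In ER-associated degradation, which returns misfolded proteins to the cytosol, 0 of 3 members were called. SEL1L, the adaptor of the ubiquitin ligase HRD1, had 165, 120.2 and 154 CPM in the controls and 277, 184 and 156 CPM after TGF-β1. TGF-β1 replicates 1 and 2 lay above every control and replicate 3 among the controls, and the log2 difference was 0.49 ± 0.20 (SE, edgeR adjusted p = 0.273). EDEM1, a mannose-trimming factor, and HERPUD1, a stress-induced membrane component, had log2 differences of 0.31 and -0.09 (edgeR adjusted p = 0.409 and 0.763).

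The largest log2 difference (SSR1) and the lowest adjusted p (SSR3) lay in translocation and signal peptide removal, where 7 of 8 log2 differences were above 0 and 0 were called. SSR1 and SSR3 code for the alpha and gamma subunits of the translocon-associated protein (TRAP) complex, which sits beside the SEC61 channel and helps some proteins to enter. SSR1 had 91.1, 72.2 and 104 CPM in the controls and 191, 144 and 109 CPM after TGF-β1. Every TGF-β1 library lay above every control, the third by a narrow margin, and the log2 difference was 0.73 ± 0.20 (SE, edgeR adjusted p = 0.146). SSR3 had 205, 169 and 204 CPM in the controls and 318, 295 and 257 CPM after TGF-β1. Its groups were also apart, and the log2 difference was 0.59 ± 0.13 (SE, edgeR adjusted p = 0.0943). SSR1 lies on chromosome 6 from 7268306 to 7347446 and SSR3 on chromosome 3 from 156540140 to 156555184, both on the minus strand. Both were called by DESeq2 and without TGF-β1 replicate 1 (SSR1 edgeR adjusted p = 0.0391, SSR3 0.0226). The background without that library was 1.47% higher. They were the members called with the replicate number as a block too, where the background was 2.97% higher.

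The other subunits of the same complex showed no such gap. SSR2, the beta subunit, had 116, 123 and 94.2 CPM in the controls and 84.8, 111 and 123 CPM after TGF-β1, with a log2 difference of -0.06 ± 0.16 (SE, edgeR adjusted p = 0.875). SSR4, the delta subunit and not a member of the list, had 102 ± 8.46 and 91.6 ± 16.3 CPM (log2 difference -0.15 ± 0.15 SE, edgeR adjusted p = 0.66). The ratio of SSR1 to SSR2 on the FPKM scale was 0.458, 0.343 and 0.649 in the controls and 1.32, 0.759 and 0.519 after TGF-β1, so the groups overlapped in this ratio. The ratio of SSR3 to SSR2 was 2.26, 1.76 and 2.78 in the controls and 4.81, 3.40 and 2.67 after TGF-β1, and overlapped too. These ratios were chosen after the levels were seen and were not tested. The subunits also differ in transcript GC content, with 40.6% for SSR1, 40.0% for SSR3, 45.2% for SSR2 and 60.8% for SSR4. With the GC trend removed, as described below, the log2 differences of SSR1, SSR3 and SSR2 were 0.42, 0.28 and -0.15. The part of GC content in the contrast between subunits was not tested.

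In the signal peptidase, which cuts the signal peptide from arriving proteins, SPCS3 had 48.4, 34.3 and 51.1 CPM in the controls and 89.8, 68.8 and 44.7 CPM after TGF-β1. TGF-β1 replicate 3 lay among the controls, and the log2 difference was 0.61 ± 0.24 (SE, edgeR adjusted p = 0.255). SPCS1 and SPCS2 had log2 differences of 0.08 and 0.06 (edgeR adjusted p = 0.773 and 0.839). Other genes, such as NEK4, cover 58.1% of the exons of SPCS1, which leaves its unstranded counts uncertain. SEC11C, a catalytic subunit outside the list of members, had 27.1, 27.6 and 26 CPM in the controls and 32.4, 36.1 and 28.8 CPM after TGF-β1. Its groups were apart, with a log2 difference of 0.27 ± 0.15 (SE, edgeR adjusted p = 0.421). SEC61A1 and SEC61B, the pore and a small subunit of the channel, had log2 differences of 0.01 and 0.11, with 95% intervals of -0.26 to 0.28 and -0.17 to 0.38.

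**Figure D3:**
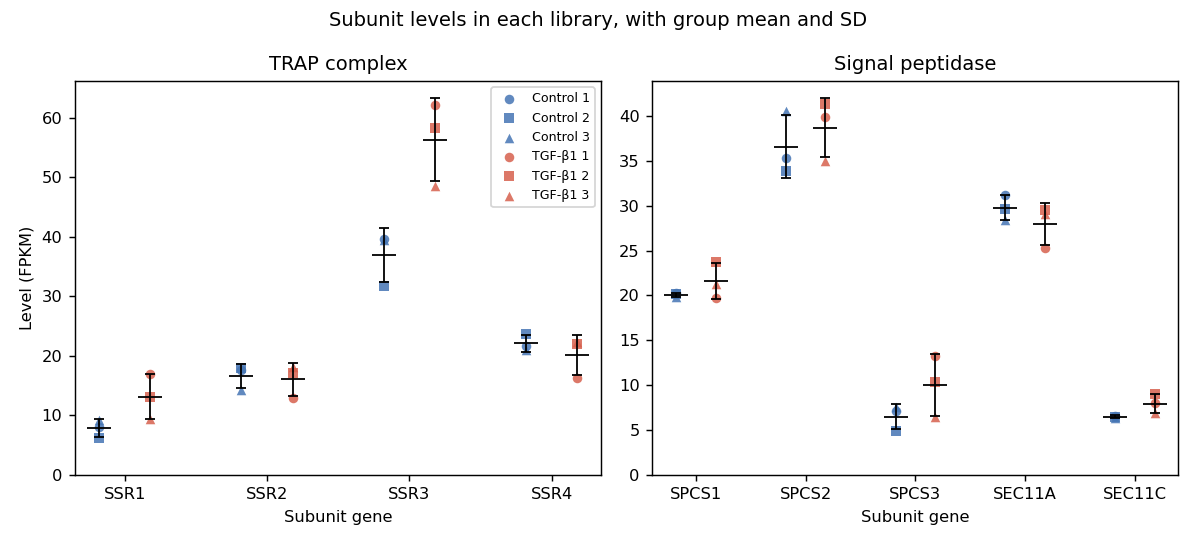
Levels in FPKM (y axis, from 0) of the subunit genes of the TRAP complex (left) and the signal peptidase (right) in each library, blue for control and red for TGF-β1, with black bars for the group mean and SD of 3. SSR3 and SSR1 sit higher in the red libraries than in the blue ones, as does SEC11C by a small step, while SSR2, SSR4, SPCS1, SPCS2, SPCS3 and SEC11A overlap.

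The KDEL receptors bring escaped chaperones back from the Golgi. KDELR2 had 285, 261 and 280.4 CPM in the controls and 240.2, 238 and 258 CPM after TGF-β1. All TGF-β1 libraries lay below all controls by a small step, with a log2 difference of -0.17 ± 0.11 (SE, edgeR adjusted p = 0.512). It was the only member with groups apart in that direction. KDELR3 had the lowest coefficient of variation of the members among the control replicates (2.16%), with an SD of 1.01 CPM around 46.8 CPM in the controls, and a log2 difference of 0.03. CKAP4, a membrane protein that shapes ER sheets, had a log2 difference of -0.08 (edgeR adjusted p = 0.802). Over all members the groups did not overlap in 3 genes that were higher (SSR1, SSR3 and FKBP14) and 1 that was lower (KDELR2). The background of such separation was 7.93% of tested genes higher and 9.12% lower (17.1% in either direction), so these counts are near the background.

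The 7 members with an exact ER stress response element in the promoter windows printed above had a median log2 difference of -0.02, with a range of -0.03 to 0.48. In 6 of them, HSPA5, CRELD2, CALR, CANX, PDIA6 and XBP1, edgeR adjusted p ran from 0.588 to 0.963, and HSP90B1, with its pair of sites, was the highest. The 25 matched members without an exact element had a median of 0.15, with a range of -0.25 to 0.73. These 25 include HERPUD1 and DNAJB9, so the 7 do not stand for the whole unfolded protein response. With the GC trend removed, as described below, the medians were 0.03 and 0.11. This is a description of gene sets chosen by their letters, with no test of the difference.

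The members' differences varied with the base composition of their transcripts. Over the 36 members the log2 difference and the GC content of the longest GENCODE transcript had a Pearson r of -0.561 and a Spearman rho of -0.592, over genes that share the same 6 libraries. Over 14375 tested genes with a GC value, r was -0.475 and rho -0.526. The 12 members of lowest GC (35.8% to 41.3%) had a median log2 difference of 0.49, and these 12 held all 7 members with an unadjusted p under 0.05. The 12 members of middle and the 12 of highest GC had medians of 0.02 and 0.07. In TGF-β1 replicate 1, 11 of the 12 low-GC members reached their highest level of the 6 libraries, against 34.2% of all tested genes. In control replicate 2, 11 of the 12 had their lowest, against 28.2% of all tested genes. Both of these shares are over genes of any GC content and are not matched to the 12. All tested genes of 35% to 40% GC had a median log2 difference of 0.45, and those of 40% to 45% GC 0.19. The median log2 deviation of these 12 genes from their own means was -0.12, -0.46 and -0.08 in the controls and 0.60, 0.22 and -0.06 after TGF-β1. The deviation fitted from GC content over all tested genes had medians of -0.09, -0.36 and -0.05, and 0.51, 0.15 and -0.16, for the same 12 genes.

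**Figure D4:**
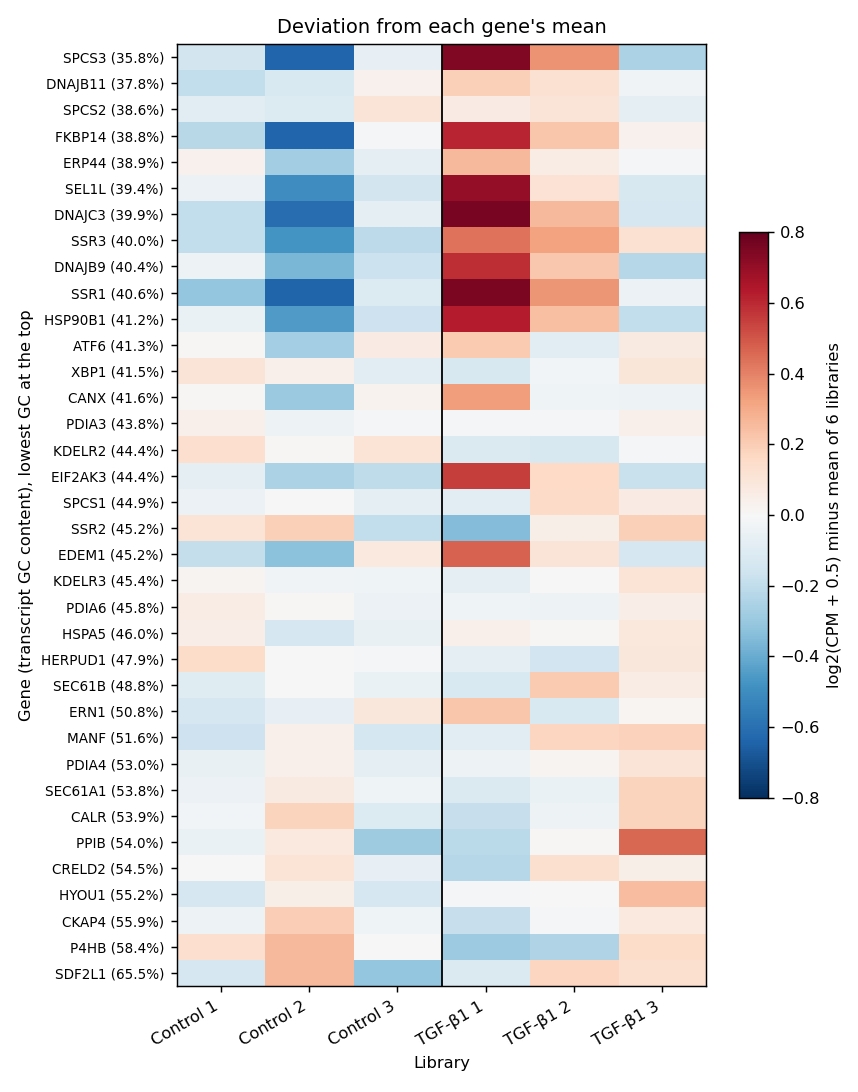
Deviation of each gene's log2(CPM + 0.5) from its mean over the 6 libraries (colour, red higher and blue lower), with libraries on the x axis and the 36 genes on the y axis from lowest to highest transcript GC content. The low-GC genes at the top are reddest in TGF-β1 replicate 1 and bluest in control replicate 2, and TGF-β1 replicate 3 is pale or blue in most of them.

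With a smooth trend of each library on GC content removed, the log2 differences of the 12 low-GC members were all lower. The log2 difference of SSR1 became 0.42 and was the only call among the 36 (edgeR adjusted p = 0.0259), where the background was 1.69% of tested genes higher. SSR3, FKBP14 and DNAJC3 became 0.28, 0.22 and 0.27, HSP90B1 0.18, SEL1L 0.12 and SPCS3 0.09. The edgeR adjusted p of these 6 ran from 0.119 (SSR3) to 0.684 (SPCS3). Some members moved the other way: HYOU1 went to 0.24 and SDF2L1, the member of highest GC content at 65.5%, to 0.23 (edgeR adjusted p = 0.122 and 0.182). DNAJB11, ERP44, ATF6, CANX, SPCS1, SPCS2, PDIA3 and KDELR3 changed sign from above to below 0, and CALR, CRELD2 and CKAP4 from below to above. KDELR2 became -0.28 and P4HB -0.15, neither called; KDELR2 and SPCS2 were called lower in this setting without TGF-β1 replicate 3, where the background was 5.73% lower. SSR1 was also called in this setting without control replicate 3, TGF-β1 replicate 1 or TGF-β1 replicate 3, each left out alone (background 1.48%, 1.17% and 4.42% higher), and with the replicate block added (1.72% higher). It was not called without control replicate 1, control replicate 2 or TGF-β1 replicate 2.

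**Figure D5:**
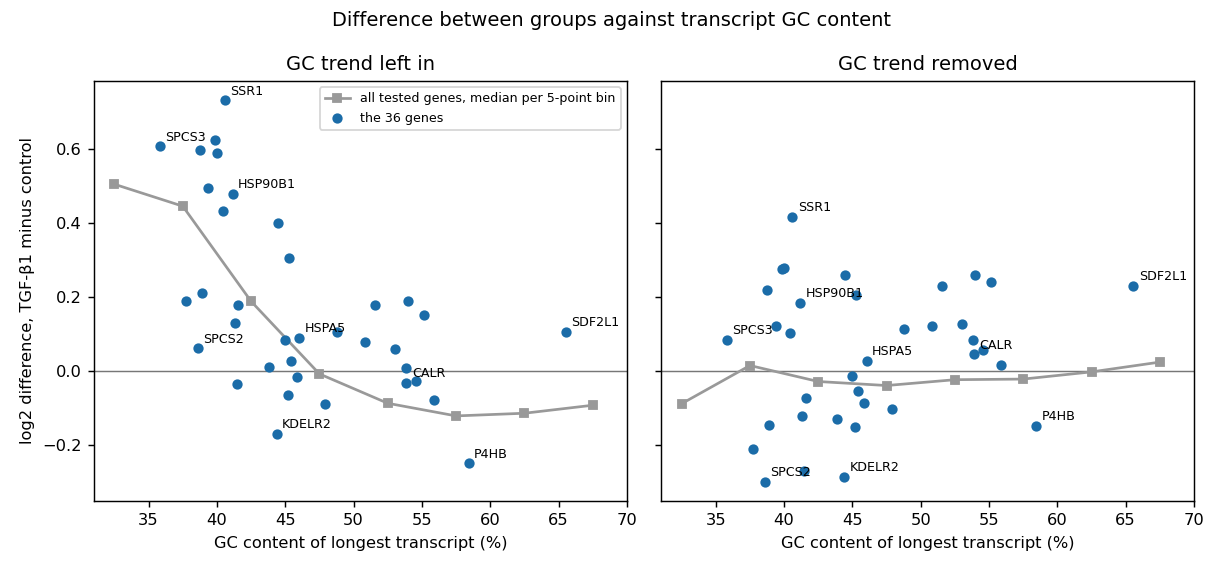
Log2 difference (y axis) against GC content of the longest transcript in percent (x axis) for the 36 genes (blue), with the median of all tested genes in bins of 5 points (grey), before (left) and after (right) removal of the GC trend. On the left the genes follow the falling grey line, which starts at 0.50 in the lowest bin. On the right SSR1 lies highest at 0.42 and SPCS2 lowest at -0.30.

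The result also turned on single libraries. Without TGF-β1 replicate 3, in which the low-GC members were lowest of the TGF-β1 libraries, 6 members were called higher: HSP90B1, DNAJC3, SEL1L, SSR1, SSR3 and SPCS3. The background then was 9.24% higher, among 1671 calls in all. Without TGF-β1 replicate 1 the members called were SSR1 and SSR3. Leaving out any of the other 4 libraries called none. With no filter on low counts the same 6 members were called as without TGF-β1 replicate 3, where the background was 3.85% higher.

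Other genes of the same pathway were taken from a list of 96, of which 94 were tested; FKBP2 and DERL3 had too few counts. None of the 94 was called higher or lower by edgeR, and their median log2 difference was -0.01. At an unadjusted p under 0.05, 15 were higher and 2 lower, beside 11.1% and 4.49% of all genes tested. The groups did not overlap in 11 that were higher and 5 that were lower, beside 7.93% and 9.12% of all genes tested.

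In each of 7 groups of this list the gene with the largest difference was a higher one, and none was called. EDEM3, a mannosidase of ER-associated degradation, had 10.0, 8.80 and 14.4 CPM in the controls and 40.9, 24 and 16.2 CPM after TGF-β1, with a log2 difference of 1.29 ± 0.31 (SE, edgeR adjusted p = 0.118). With the GC trend removed its log2 difference was 0.85 (edgeR adjusted p = 0.0188). LMAN1, a cargo receptor for glycoproteins, had 103, 78.4 and 113 CPM in the controls and 248, 157 and 113 CPM after TGF-β1, the third TGF-β1 library equal to the highest control within rounding (log2 difference 0.82 ± 0.25 SE, edgeR adjusted p = 0.167). SEC62, a translocon partner, had 29 ± 4.78 and 51.4 ± 16.8 CPM (log2 difference 0.83 ± 0.23 SE, edgeR adjusted p = 0.146). The others were DNAJC10, a disulfide reductase (log2 difference 0.87 ± 0.28 SE, edgeR adjusted p = 0.19), CREBRF, a regulator of the unfolded protein response (log2 difference 0.87 ± 0.30 SE, edgeR adjusted p = 0.21), UGGT2, a glycoprotein folding sensor relative (log2 difference 0.65 ± 0.23 SE, edgeR adjusted p = 0.224), and SRP54 of the signal recognition particle (log2 difference 0.44 ± 0.22 SE, edgeR adjusted p = 0.346). All 7 had a transcript GC content of 35.8% to 41.3%. With the GC trend removed, 4 of the 94 were called higher, where the background was 1.69%: EDEM3, SEC63, SEC24D and SERPINH1, the collagen chaperone HSP47. None of the list was called in that setting without control replicate 1, control replicate 2 or TGF-β1 replicate 2, each left out alone.

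The PERK branch had its own targets in this list. DDIT3, the transcription factor CHOP, had 13.6, 14 and 14 CPM in the controls and 11.5, 13.6 and 12 CPM after TGF-β1, and PPP1R15A, which restores translation as GADD34, had 190.3, 220.1 and 186 CPM in the controls and 159.7, 182 and 182 CPM after TGF-β1. Both had all TGF-β1 libraries below all controls, in DDIT3 with the closest pair equal within rounding, with log2 differences of -0.17 and -0.19 (edgeR adjusted p = 0.663 and 0.491); they were singled out after their values were seen. ATF4 and TRIB3 had log2 differences of -0.01 and -0.20. Of the 13 genes of unfolded protein response signalling, 10 had log2 differences below 0 and 0 were called; 23.1% were above 0, against 51.0% of all genes tested. The median GC content of these 13 was 56.6% and their median log2 difference -0.11, while all tested genes of 55% to 60% GC had a median of -0.12.

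Genes whose pattern over the 6 libraries was most like that of HSPA5 and of P4HB were searched among 9343 genes with a mean of at least 10 CPM. For HSPA5 the nearest were TBCCD1 (Pearson r = 0.990), SVIL-AS1, EIF5A2, TBPL1 and HERPUD2, the last with r = 0.942. HSPA5 itself spanned only 0.22 on the log2 scale. For P4HB they were AP2A2, PTDSS1, NEURL4, SH3BGRL3 and EIF3D, with r of 0.997 to 0.998. These r describe the same 6 libraries and carry no test.

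The labelled cell type was checked on markers. ALB, TTR, HNF4A, CD68, CD3E, TYROBP and CDH1 were not analysed here. Of 12 stellate cell markers, 9 averaged at least 1 CPM, with COL1A1 and VIM highest; DES had 1 to 5 counts, LRAT 0 to 2 and RGS5 6 to 13. Their sum was 2940.0 to 3015 CPM in the controls and 3237 to 3784 after TGF-β1, higher in every TGF-β1 library. COL1A1 (means of 1319 and 1780.0 CPM), TAGLN (96.9 and 306) and COL3A1 (94.3 and 157) carried this, whereas the mean of VIM was lower (1407 and 1232), as were those of ACTA2, HAND2, GFAP, RGS5 and DES. Of the markers of other cells, EPCAM had 0 to 1 counts per library, KRT19 0 to 2, APOA1 0 to 1, CDH5 0 to 4, STAB2 0 to 3 and LYZ 1 to 5, while others in the same lists were high. Summed hepatocyte markers were 50.3 to 54.1 CPM in the controls and 57.3 to 72.5 after TGF-β1, carried by SERPINA1 and CPS1, and summed leukocyte markers 25.2 to 31.9 and 20.7 to 22.6 CPM, carried by CD14 and ITGAX. Endothelial sums (440 to 452 and 430 to 449 CPM) overlapped and were carried by TIE1, with 4307 to 6235 counts, and FLT1, with 1658 to 2893. Epithelial sums (629.6 to 737 and 498 to 672 CPM) overlapped and were carried by KRT8 (4375 to 7500 counts), KRT18 (2464 to 4219) and SOX9 (1022 to 1402). The part of any other cell in the members' levels was not tested. Close copies of members had few counts: PDIA3P1 11 to 45, SPCS2P4 38 to 92, HSP90B2P 0 to 6.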

How the data were processed

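RNA from 6 LX-2 samples (3 per group) was extracted with Trizol and made into libraries with a kit that keeps no strand, per the labels' protocols. The submitters' processing notes name HISAT2, HTSeq 0.13.5 and GRCh38; alignment settings are not given in the sources used here. As deposited, the table holds raw read counts per gene and, beside them, FPKM values that the authors computed (fragments scaled by gene length and library size). Counts were tested with edgeR 4.0.16 (TMM, robust quasi-likelihood, two-sided, Benjamini-Hochberg over 14463 genes left by filterByExpr) in R 4.3.3; calls are at an adjusted p under 0.05. CPM used TMM-scaled library sizes, except for the cell type markers and the count floor, which used total counts. FPKM served to compare levels between genes, in the subunit ratios and the figures of levels, and in the limma fits on log2 FPKM. The 95% floor of 3 counts was 0.170 to 0.216 CPM, for counting error only. GC content came from the longest GENCODE release 29 transcript (14375 tested genes); its loess trend (span 0.5) was removed per library as an alternative. Other alternatives were DESeq2 1.42.0, limma 3.58.1, other scalings and filters, the replicate block and leaving out each library. All 36 members were described; the wider list was named by its largest difference per group. Members and lists were chosen with earlier results of these data known. The fit was tested on simulated data. Promoter sequences are from RefSeq (GRCh38.p14); PDIA3, FKBP14, SPCS1 and KDELR2 had no entry matched.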

Additional observations from a re-analysis of the deposited data

How the results depend on the processing

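The count of members called higher was 0 under the other scalings, a stricter filter and limma, 6 with no filter, 2 with DESeq2, and 1 with the GC trend removed, and it ran from 0 to 6 with 1 library left out (0 to 2 with the GC trend also removed, chosen after seeing the data); the count called lower ran from 0 to 2 in that last setting and was 0 elsewhere. In the wider list 12 were called higher with no filter, 7 with DESeq2 and 4 with the GC trend removed. The shares of all genes called higher in these settings were 3.85%, 3.70% and 1.69%. With 1 library left out the list's count called higher ran from 0 to 13 (0 to 8 with the GC trend removed). Its highest counts came without TGF-β1 replicate 3, where 9.24% of all genes were called higher (4.42% with the GC trend removed). The list's count called lower ran from 0 to 1 (0 to 10), highest without the same library. There 297 of 14874 genes were called lower (5.73% with the GC trend removed). All-gene calls went from 53 to 111 with upper quartile factors, 1240 with no filter, 615 with DESeq2 and 483 with the GC trend removed, and from 4 to 1671 with 1 library left out (97 to 1511 with the GC trend removed). The members' median log2 difference went from 0.106 to 0.0707 with the GC trend removed, and ran from 0.0336 to 0.122 with 1 library left out, with or without the GC trend. With the replicate number as a block, 2 members, 7 genes of the wider list and 527 genes in all were called, and with the block and the GC trend removed 1, 4 and 492, with a members' median of 0.0674. The called members and list genes were all higher, beside 2.97% and 1.72% of all genes called higher in these settings. Same-numbered samples deviated together with r of 0.176, 0.1 and -0.355, and control replicates 2 and 3 were closer to a TGF-β1 sample of another number, so the numbers were not taken to pair the samples. Over 24 alternatives and 49 named genes, 117 of 1176 log2 differences changed sign, 1000 kept sign and call, and 59 became called in the same direction; the cause was not tested. Signs changed as follows. GC trend removed gave DNAJB11 -0.21, CRELD2 0.0582, CALR 0.0453, CANX -0.0717, PDIA3 -0.13, ERP44 -0.14, ATF6 -0.12, SPCS1 -0.0136, SPCS2 -0.30, KDELR3 -0.0536, CKAP4 0.0177. GC trend removed with replicate block gave DNAJB11 -0.22, CRELD2 0.0528, CALR 0.0445, CANX -0.0748, PDIA3 -0.14, ERP44 -0.15, ATF6 -0.13, SPCS1 -0.0216, SPCS2 -0.31, KDELR3 -0.0595, CKAP4 0.0177. Upper quartile factors gave PDIA3 -0.0209, SEC61A1 -0.0215, KDELR3 -0.003419. Total counts only gave PDIA6 0.003574. Limma on log2(FPKM + 1) gave PDIA6 0.003953. Limma on log2(FPKM + 0.1) gave PDIA6 0.003999. No filter gave SEC61A1 -0.001654. With 1 library left out, with or without the GC trend, the log2 differences of the genes that changed sign ran over HSPA5 -0.0385 to 0.14, DNAJB11 -0.35 to 0.25, SDF2L1 -0.0203 to 0.30, CRELD2 -0.10 to 0.13, CALR -0.13 to 0.10, CANX -0.15 to 0.24, PDIA3 -0.24 to 0.0314, PDIA6 -0.17 to 0.0104, ERP44 -0.28 to 0.28, PPIB -0.0238 to 0.37, ATF6 -0.27 to 0.20, ERN1 -0.0219 to 0.18, XBP1 -0.48 to 0.016, SEC61A1 -0.0858 to 0.11, SSR2 -0.33 to 0.0717, SPCS1 -0.0887 to 0.15, SPCS2 -0.43 to 0.12, KDELR3 -0.16 to 0.0678, CKAP4 -0.14 to 0.0484, ACTA2 -0.33 to 0.0773.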
